A study of Mus musculus with 4 samples.

Results

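Major histocompatibility complex (MHC) class I genes and the genes that load them with peptide were examined in mouse PFC after *Ash1L* knockdown. The 10 genes were 2 classical heavy chain genes (*H2-K1* and *H2-D1*), 6 genes of the H2-Q and H2-T series including the gene model *Gm11127*, the light chain gene *B2m* and the peptide transporter gene *Tap1*. They were taken by symbol from 23420 counted genes, because their levels in this same contrast had drawn attention, so the *Ash1L* shRNA against control values of the 10 genes are descriptions and are not offered as tests. RNA was sequenced from PFC punches with GFP fluorescence, of wild-type C57BL6/J mice of both sexes. In all samples a GFP-tagged AAV9 had been injected bilaterally into medial PFC. The 2 control samples received GFP AAV9, and the 2 *Ash1L* shRNA samples received AAV9 with an shRNA to *Ash1L* under the U6 promoter, which acts in every infected cell type. In the paper the control virus carries a scrambled shRNA. Each sample was a pool of 3 mice injected at 5 weeks of age by the paper, whereas the series description names 3 knockdown and 2 control mice aged 6 to 8 weeks. The punches hold infected and uninfected cells of all types.

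MHC class I molecules carry short peptides from inside the cell to its surface, where CD8 T cells and natural killer (NK) cells read them. A heavy chain pairs with β2-microglobulin, the product of *B2m*, and receives a peptide that the transporter TAP1-TAP2 has moved into the endoplasmic reticulum. The classical genes *H2-K1* and *H2-D1* encode the main presenting molecules. The H2-Q and H2-T genes are nonclassical, with lower or more restricted expression. *H2-T23* encodes Qa-1, a ligand of the CD94-NKG2A receptor, *H2-T10* and *H2-T22* encode ligands of some γδ T cells that carry no peptide, and *H2-Q10* encodes a secreted molecule made mainly by liver. In brain, class I is found on endothelial cells, microglia and some neurons, and interferons raise it.

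Samples held between 14251190 and 35764874 counts, and 16232 genes were tested with edgeR's quasi-likelihood test. *Ash1l*, the target, gave 245 and 290 CPM (the usual counts-per-library unit, scaled by TMM) in controls and 216 and 138 CPM in the *Ash1L* shRNA samples. Its log2 fold change was -0.60 (SE 0.22), with an adjusted p of 0.275 by edgeR's quasi-likelihood test (Benjamini-Hochberg corrected). DOWN and UP genes are those with an unadjusted p below 0.05 and at least a 1.2-fold change, as the study defined them. With 2 samples in a group, an exact permutation test of a single gene cannot give a p below 0.333. All p-values measure the spread between these pools. Where a sample is left out below, 1 group holds a single sample. Counts of DOWN and UP genes over all genes were then higher without *Ash1L* shRNA replicate 1 and lower without each other sample. Counts within lists are to be read beside this.

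Class I promoters share short control elements near the start site, and 200 bases upstream of the RefSeq gene start were read for the members to show which of them hold these letters. Of the 10 genes, 9 had an entry in the RefSeq table (GRCm38.p6). *H2-T10* had none. The RefSeq starts can differ from the gene spans given further below, which come from another annotation. The *H2-D1* window lies inside its span there, and the *H2-T23* window lies largely inside its own. The windows of *H2-T22*, *B2m* and *Tap1* reach into theirs by a few bases or fewer. The letters searched, on both strands, were TTTCNNTT (like an interferon-stimulated response element, ISRE), GGATTNCCC (like a κB site), TGACG (like a cyclic AMP response element, CRE) and CCAAT. They were chosen after the sequences had been looked at. The sequences below run 5′ to 3′ on the strand of the gene, and capitals mark the matches, which do not overlap each other in these windows. *H2-K1* and *H2-D1* are shown as the classical pattern, *H2-Q10* and *Gm11127* as the genes with no counts after knockdown, and *B2m* and *Tap1* as the partners.
H2-K1 (chr17:34000348-34000547, minus strand): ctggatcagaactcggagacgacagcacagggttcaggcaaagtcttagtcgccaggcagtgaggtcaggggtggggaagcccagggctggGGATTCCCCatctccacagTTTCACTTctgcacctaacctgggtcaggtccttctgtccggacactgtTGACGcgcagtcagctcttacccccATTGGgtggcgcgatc
H2-D1 (chr17:35262894-35263093, plus strand): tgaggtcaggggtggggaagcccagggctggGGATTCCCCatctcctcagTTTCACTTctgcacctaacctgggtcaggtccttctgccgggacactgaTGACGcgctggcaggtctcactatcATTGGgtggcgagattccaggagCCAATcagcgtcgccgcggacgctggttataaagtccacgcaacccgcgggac
H2-Q10 (chr17:35469889-35470088, plus strand): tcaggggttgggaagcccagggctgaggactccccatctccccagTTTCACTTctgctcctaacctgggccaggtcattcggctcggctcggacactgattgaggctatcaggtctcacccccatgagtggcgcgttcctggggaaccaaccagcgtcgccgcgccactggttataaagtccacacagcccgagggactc
Gm11127 (chr17:36058372-36058571, minus strand): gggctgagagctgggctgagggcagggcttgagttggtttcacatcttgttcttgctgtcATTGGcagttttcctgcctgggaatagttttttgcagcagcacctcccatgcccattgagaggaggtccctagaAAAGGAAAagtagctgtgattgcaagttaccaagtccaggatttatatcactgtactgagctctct
B2m (chr2:122147487-122147686, plus strand): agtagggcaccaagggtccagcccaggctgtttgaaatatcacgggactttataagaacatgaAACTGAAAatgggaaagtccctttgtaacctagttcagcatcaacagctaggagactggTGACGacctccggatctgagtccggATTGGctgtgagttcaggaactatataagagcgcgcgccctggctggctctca
Tap1 (chr17:34187356-34187555, plus strand): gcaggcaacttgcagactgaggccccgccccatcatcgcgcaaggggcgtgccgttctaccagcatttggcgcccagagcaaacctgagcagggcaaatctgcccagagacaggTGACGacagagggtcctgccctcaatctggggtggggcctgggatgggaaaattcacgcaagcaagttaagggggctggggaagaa

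The κB-like letters occurred in 3 of the 9 members with a promoter, *H2-K1*, *H2-D1* and *H2-Q4*, against 0.563% of all 32851 promoters. In each of these 3 genes the ISRE-like letters began 19 bases after the start of the κB-like letters. The ISRE-like letters were found in 8 of 9 members and in 17% of all promoters, and *Tap1* was the member without them. The CRE-like letters were found in 6 of 9 members and in 15.7% of all promoters. The CCAAT letters were found in 7 of 9 members and in 29.3% of all promoters. *H2-Q10*, with ISRE-like letters alone, and *Gm11127* and *H2-T23*, with ISRE-like and CCAAT letters, had neither the κB-like nor the CRE-like letters in this window. A match describes the letters in this window and is not a bound site. Because the letters were chosen after these sequences were seen, and the heavy chain genes resemble each other, the shares carry no test. The matches and the common spacing are not independent observations.

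All members but *B2m* lie on chromosome 17, where the classical and the nonclassical genes are far apart in part. In the mm10 build, *H2-K1* (ENSMUSG00000061232) spans chr17:33996017-34000347 on the minus strand and *Tap1* (ENSMUSG00000037321) chr17:34187553-34197225 on the plus strand. *H2-D1* (ENSMUSG00000073411, chr17:35262730-35267499), *H2-Q4* (ENSMUSG00000035929, chr17:35379617-35385290) and *H2-Q10* (ENSMUSG00000067235, chr17:35470089-35474563) follow on the plus strand. The H2-T genes lie together on the minus strand, with *H2-T23* (ENSMUSG00000067212) at chr17:36029773-36032855 and *H2-T22* (ENSMUSG00000056116) at chr17:36037128-36042747. *Gm11127* (ENSMUSG00000079492) follows at chr17:36055816-36058371. *H2-T10* (ENSMUSG00000079491) lies at chr17:36115876-36121465, and its annotation is that of a polymorphic pseudogene. *B2m* (ENSMUSG00000060802) lies at chr2:122147686-122153083 on the plus strand.

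Heavy chain genes resemble each other, and a read from shared sequence can be given to the wrong gene or to none. The share of 50-base words of a gene's annotated transcripts that also occur in another gene was 9.63% for *H2-K1* and 12.8% for *H2-D1*. It was 14.5% for *H2-T23*, 19.1% for *H2-Q10* and 36.4% for *H2-Q4*. The highest shares were 50.4% for *H2-T10*, 53.5% for *H2-T22* and 78.3% for *Gm11127*. *B2m* shared none of its words, and *Tap1* shared 3.33%, mostly with its neighbour *Psmb9*. With 100-base words, the share was 0.957% for *H2-K1* and 49.9% for *Gm11127*. Counts of *H2-K1*, *H2-D1*, *B2m* and *Tap1* therefore rest mainly on sequence of their own, and counts of *H2-T10*, *H2-T22* and *Gm11127* are uncertain.

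**Figure D1:**
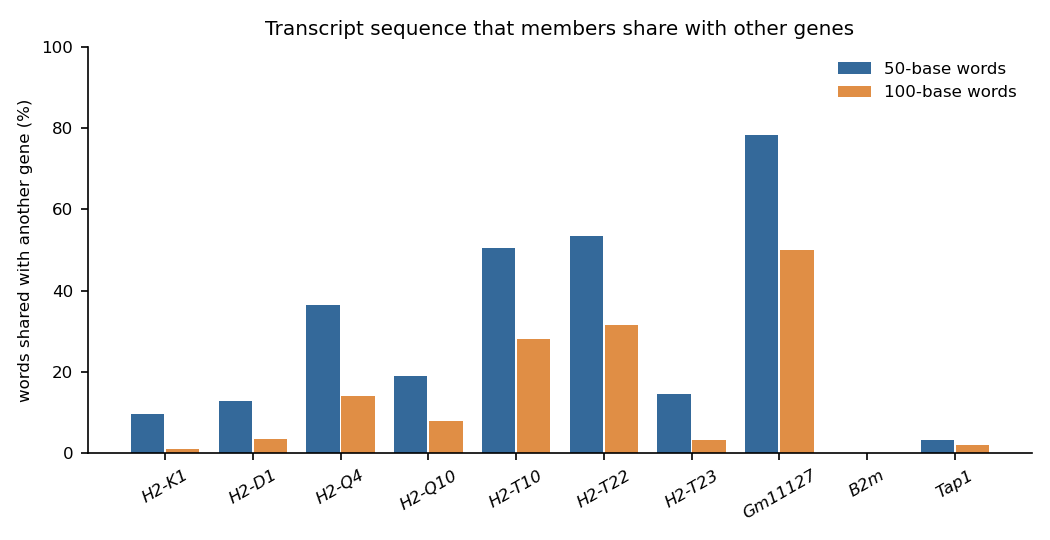
Share (%) of the 50-base (blue) and 100-base (orange) words of each member's annotated transcripts that also occur in a transcript of another gene. Gm11127 stands at 78.3% and 49.9%, H2-K1 at 9.63% and 0.957%, and B2m at 0%.

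*H2-T10* shared 31.7% of its 50-base words with *H2-T22*. It lies inside the span of *Gm7030* on the same strand, and *Gm7030* had 2 and 17 counts in controls and 6 and 1 counts in *Ash1L* shRNA samples. *Gm11127* shared 40.2% of its words with *Gm6034*, which covers all of its 2556 bases on the opposite strand, and 38.2% with *Gm7030*. Whether counting used the strand is not given in the sources used here, so reads from such pairs cannot be told apart. *H2-T22* and *H2-T23* overlap the opposite-strand gene *A930015D03Rik*, and *B2m* overlaps the opposite-strand gene *Patl2*.

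Per kilobase of exon, *B2m* was the most abundant member, at 406 ± 139 CPM per kb in controls (SD, n = 2). *H2-K1* (69.1 ± 33.1 CPM per kb) and *H2-D1* (37.1 ± 14.5 CPM per kb) came next. *H2-T23* (13.3 ± 4.68), *H2-Q4* (8.12 ± 4.81), *H2-T10* (5.52 ± 0.279), *Tap1* (5.45 ± 2.54) and *Gm11127* (2.93 ± 1.08) formed the middle of the order, all in CPM per kb in controls. *H2-Q10* at 0.332 ± 0.0314 CPM per kb and *H2-T22* at 0.0416 CPM per kb were lowest. The ranges of neighbours over the control samples were apart for *B2m* and *H2-K1*, *H2-D1* and *H2-T23*, *Gm11127* and *H2-Q10*, and *H2-Q10* and *H2-T22*. The ranges of the other neighbours overlapped. Within each control sample, *H2-K1* still stood above *H2-D1*, *H2-T23* above *H2-Q4* and *Tap1* above *Gm11127*. The place of *H2-T10* beside *H2-Q4* and *Tap1* changed between the control samples. In *Ash1L* shRNA samples, *B2m* (273 ± 141), *H2-K1* (39.2 ± 22.9) and *H2-D1* (20.1 ± 12) were again the first 3, in CPM per kb. *H2-T10*, at 0.438 CPM per kb, stood after *H2-T23* (15.2 ± 3.25), *Tap1* (6.18 ± 0.889) and *H2-Q4* (4.99 ± 2.23).

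Of the 10 members, 9 passed the filter on low counts and *H2-T22* did not. DOWN members were *H2-T10*, *H2-Q10* and *Gm11127*, and no member was UP. Among all genes tested, 8.28% were DOWN and 8.61% were UP. In the same 3 members both *Ash1L* shRNA samples lay below both controls, as in 26.8% of all genes tested. *H2-T10* alone had an adjusted p under 0.05 by edgeR's quasi-likelihood test (Benjamini-Hochberg corrected). It was also the only one of the 16232 genes tested to pass that limit (0.00616%). Since the members were chosen from this contrast, nothing is read from these counts.

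**Figure D2:**
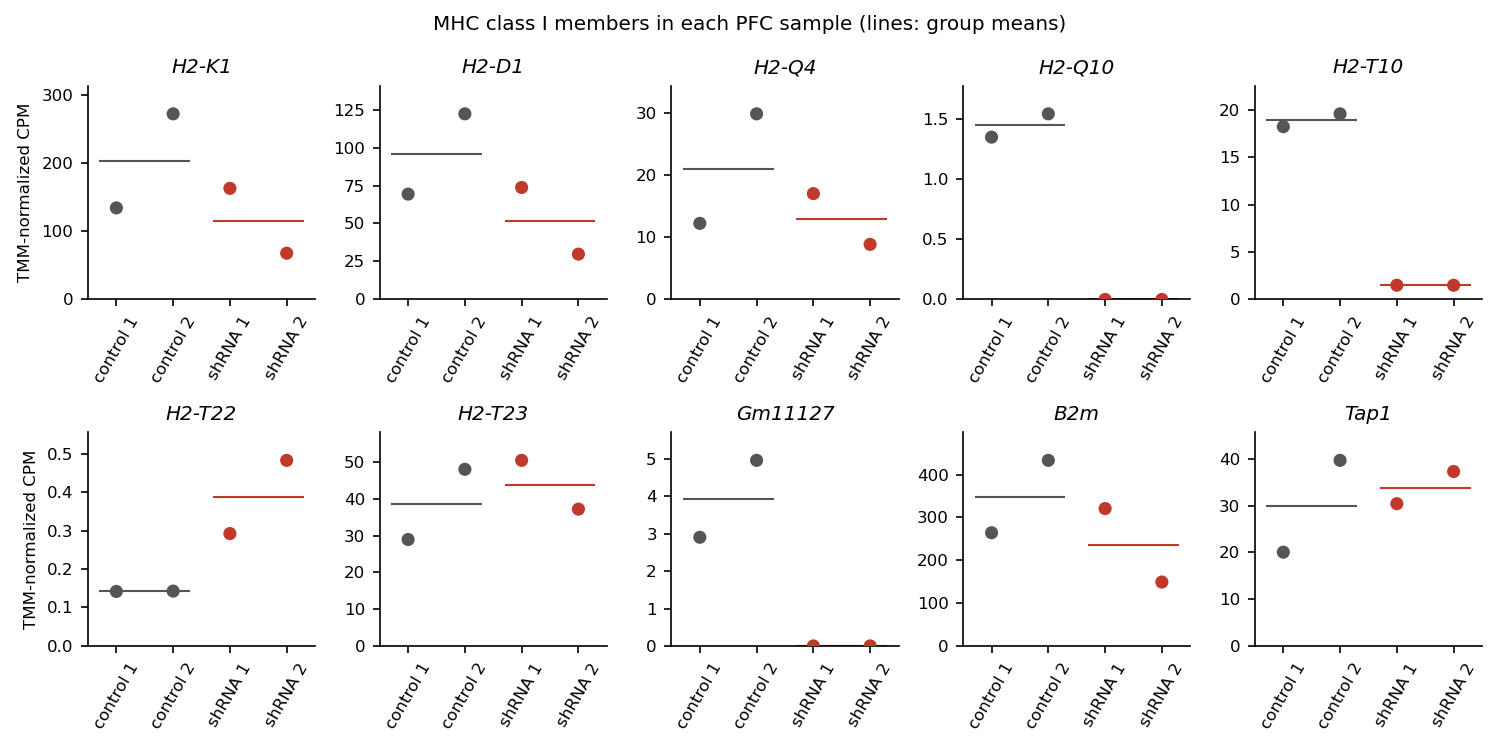
TMM-normalized CPM of each member in the 2 control (grey) and 2 Ash1L shRNA (red) samples, with a linear axis of its own per gene, and horizontal lines at the group means. H2-T10 is at 1.5 CPM in both Ash1L shRNA samples against 18.2 and 19.6 CPM in controls, Gm11127 and H2-Q10 are at 0, and the classical genes overlap between groups.

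The classical genes were lower on average after *Ash1L* knockdown, but the groups overlapped. *H2-K1* was measured at 134 and 272 CPM in controls and at 163 and 67.7 CPM in the *Ash1L* shRNA samples. *H2-D1* was measured at 69.4 and 122 CPM in controls and at 73.7 and 29.8 CPM in the *Ash1L* shRNA samples. In both genes *Ash1L* shRNA replicate 1 lay between the controls and replicate 2 lay below both. The log2 fold change was -0.82 (SE 0.53) for *H2-K1* and -0.89 (SE 0.50) for *H2-D1*, neither DOWN. Both values rested on single samples. For *H2-K1* the log2 fold change was -1.59 without *Ash1L* shRNA replicate 1, -1.23 without control replicate 1, -0.32 without *Ash1L* shRNA replicate 2 and -0.22 without control replicate 2. For *H2-D1* it was -1.70, then DOWN, without *Ash1L* shRNA replicate 1, -0.38 without *Ash1L* shRNA replicate 2 and -0.42 without control replicate 2. In bulk tissue, fewer cells that carry these molecules and less RNA per cell cannot be told apart.

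The 2 classical genes kept nearly the same ratio in every sample. There were 1.93 and 2.22 counts of *H2-K1* for each count of *H2-D1* in controls, and 2.21 and 2.27 in the *Ash1L* shRNA samples. Light chain counts followed too, with 1.97 and 1.6 counts of *B2m* per count of *H2-K1* in controls and 1.97 and 2.2 in the *Ash1L* shRNA samples. *B2m* itself was at 264 and 433 CPM in controls and 321 and 149 CPM in the *Ash1L* shRNA samples, and its groups overlapped. Its log2 fold change was -0.57 (SE 0.42), with -1.23, then DOWN, without *Ash1L* shRNA replicate 1. It was -0.12 without *Ash1L* shRNA replicate 2, -0.17 without control replicate 2 and -0.87 without control replicate 1.

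*H2-T10* was low in both *Ash1L* shRNA samples. It had 257 and 686 counts in controls and 41 and 31 counts in the *Ash1L* shRNA samples. On the CPM scale this was 18.2 and 19.6 against 1.5 and 1.5, so the groups were far apart and each held close together. The *Ash1L* shRNA samples stood at 7.93% and 7.92% of the control mean, and the log2 fold change was -3.65 (SE 0.21). The adjusted p was 0.0214 by edgeR's quasi-likelihood test (Benjamini-Hochberg corrected), a value from the contrast by which the gene was chosen. Leaving out 1 sample at a time kept the log2 fold change between -3.69 and -3.60, while its p by edgeR's quasi-likelihood test, adjusted, ran from 0.000325 to 0.421. It was above 0.05 without either control replicate. Counts of *H2-T10* per count of *H2-K1* were 0.136 and 0.072 in controls and 0.0092 and 0.0221 in the *Ash1L* shRNA samples.

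*H2-Q10* and *Gm11127* had no counts in either *Ash1L* shRNA sample. *H2-Q10* had 19 and 54 counts in controls, or 1.35 and 1.54 CPM. *Gm11127* had 41 and 174 counts in controls, or 2.90 and 4.96 CPM. A count of 0 allows up to 3 counts in a library, which is 0.1095 and 0.1447 CPM in the *Ash1L* shRNA samples and covers counting error only. Against the mean of these 2 floors, the group mean of *H2-Q10* was at least 11.3-fold lower and that of *Gm11127* at least 30.9-fold lower. These are bounds on group means and not on each library. Among all 23420 genes these were the only 2 with no counts in either *Ash1L* shRNA sample and at least 10 counts in each control, and the only gene with the opposite pattern was *Ccl11*, an eosinophil chemokine, at 69 and 18 counts in *Ash1L* shRNA samples. *Ccl11* is named after its values were seen.

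The other nonclassical members did not share this pattern. *H2-Q4* was at 12.3 and 29.9 CPM in controls and 17.1 and 8.88 CPM in the *Ash1L* shRNA samples, which overlapped as the classical genes did. Its log2 fold change was -0.71 (SE 0.50), and it became DOWN at -1.19 without control replicate 1 and turned to 0.08 without control replicate 2. *H2-T23* was at 29.0 and 48.1 CPM in controls and 50.5 and 37.2 CPM in the *Ash1L* shRNA samples. Its groups overlapped, and its log2 fold change was 0.18 (SE 0.27), or -0.12 without control replicate 1 and -0.07 without *Ash1L* shRNA replicate 1. *H2-T22* had 2 and 5 counts in controls and 8 and 10 counts in the *Ash1L* shRNA samples. Both *Ash1L* shRNA samples were the higher ones, at 0.292 and 0.482 CPM against 0.142 and 0.143 CPM, but all 4 values rest on 10 counts or fewer.

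*Tap1* was at 20.0 and 39.7 CPM in controls and 30.4 and 37.3 CPM in the *Ash1L* shRNA samples. Both *Ash1L* shRNA samples lay between the controls, and the log2 fold change was 0.17 (SE 0.32). The value was -0.22 without control replicate 1 and 0.75, then UP, without control replicate 2. *Tap2*, which encodes the other chain of the transporter, was DOWN, at 18.2 and 24.9 CPM in controls and 16.4 and 12.4 CPM in the *Ash1L* shRNA samples. Counts of *Tap1* per count of *Tap2* were 1.1 and 1.59 in controls and 1.86 and 3.01 in the *Ash1L* shRNA samples. *Tap1* and *H2-T23* did not follow *H2-K1* in *Ash1L* shRNA replicate 2, where there were 0.551 *Tap1* and 0.55 *H2-T23* counts for each *H2-K1* count, against 0.15 and 0.146 (*Tap1*) and 0.216 and 0.177 (*H2-T23*) in controls.

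A sum over all heavy chain genes does not change when reads are given to the wrong one of them. It does change when reads are given to none or to a gene outside the sum. The summed level of 36 heavy chain genes was 295.7 and 535 CPM in controls and 336.9 and 165.7 CPM in the *Ash1L* shRNA samples, and the groups overlapped. The mean was 415 ± 169 CPM against 251 ± 121 CPM (SD, n = 2), a log2 difference of -0.725. Without *H2-K1* and *H2-D1*, the sum was 92.3 and 141 CPM in controls and 101 and 68.2 CPM in the *Ash1L* shRNA samples.

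*Ash1L* shRNA replicate 2 had the lowest classical levels, and microglial markers were low in the same sample. Being lowest there was not particular to microglia, but the size of the drop differed. Summed neuron, astrocyte, oligodendrocyte, endothelial and blood myeloid markers were lowest there too. The median log2 CPM deviation from the control mean in that sample was -0.89 for microglial and -1.24 for blood myeloid markers. It was -0.67 for astrocyte, -0.44 for neuron, -0.20 for oligodendrocyte and -0.18 for endothelial markers. Astrocyte markers summed to 5456 and 5772 CPM in controls and 4423 and 3271 CPM in *Ash1L* shRNA samples. Neuron markers summed to 7601 and 8231 CPM in controls and 6809 and 5402 CPM in *Ash1L* shRNA samples. The deviation from the control mean on the log2 CPM scale was -0.23 and -1.49 for *H2-K1* in *Ash1L* shRNA replicates 1 and 2, and the median over 12 microglial markers was 0.45 and -0.89. The summed level of these markers was 1032 and 1066 CPM in controls, and 1421 and 548 CPM in the *Ash1L* shRNA samples, and 0 of 12 were called. Without *Ash1L* shRNA replicate 1, 11 of 12 were DOWN, and without *Ash1L* shRNA replicate 2, 7 of 12 were UP. Endothelial markers summed to 338 and 309 CPM in controls and 343 and 295 CPM in the *Ash1L* shRNA samples, with 0 of 10 called, or 1 DOWN without *Ash1L* shRNA replicate 1.

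For most lymphocyte markers both knockdown samples lay below both controls. *H2-T10*, *H2-Q10* and *Gm11127* had this order too, as had 26.8% of all genes tested. The order held for 7 of 10 T and NK cell markers, of which 6 were DOWN, and not for *Gzma*, *Gzmb* and *Thy1*. Without *Thy1*, which neurons express, the sum of the T and NK cell markers was 16.8 and 32.3 CPM in controls and 8.11 and 5.98 CPM in the *Ash1L* shRNA samples. All 4 tested B cell markers were DOWN, with sums of 7.30 and 12.6 CPM in controls and 1.5 and 0.627 CPM in the *Ash1L* shRNA samples. Without control replicate 2, 2 of 9 tested T and NK cell markers and 3 of 3 B cell markers were DOWN. Of 7 tested blood myeloid markers 3 were DOWN, and the sum was 106 and 123 CPM against 88.3 and 46.1 CPM. This count was 1 without control replicate 2 and 5 without *Ash1L* shRNA replicate 1. No defining lymphocyte marker was at 0 in all samples, and *Cd3e* had 7, 47, 6 and 8 counts. Among the resident cells, 3 of 10 neuron markers, 5 of 8 astrocyte markers and 0 of 8 oligodendrocyte markers were DOWN. Without *Ash1L* shRNA replicate 1 these counts were 6, 6 and 3. Without control replicate 2 they were 0, 3 and 0, without control replicate 1 they were 2, 3 and 0, and without *Ash1L* shRNA replicate 2 they were 1, 4 and 0. The part of any of these cells in the class I values was not tested.

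**Figure D3:**
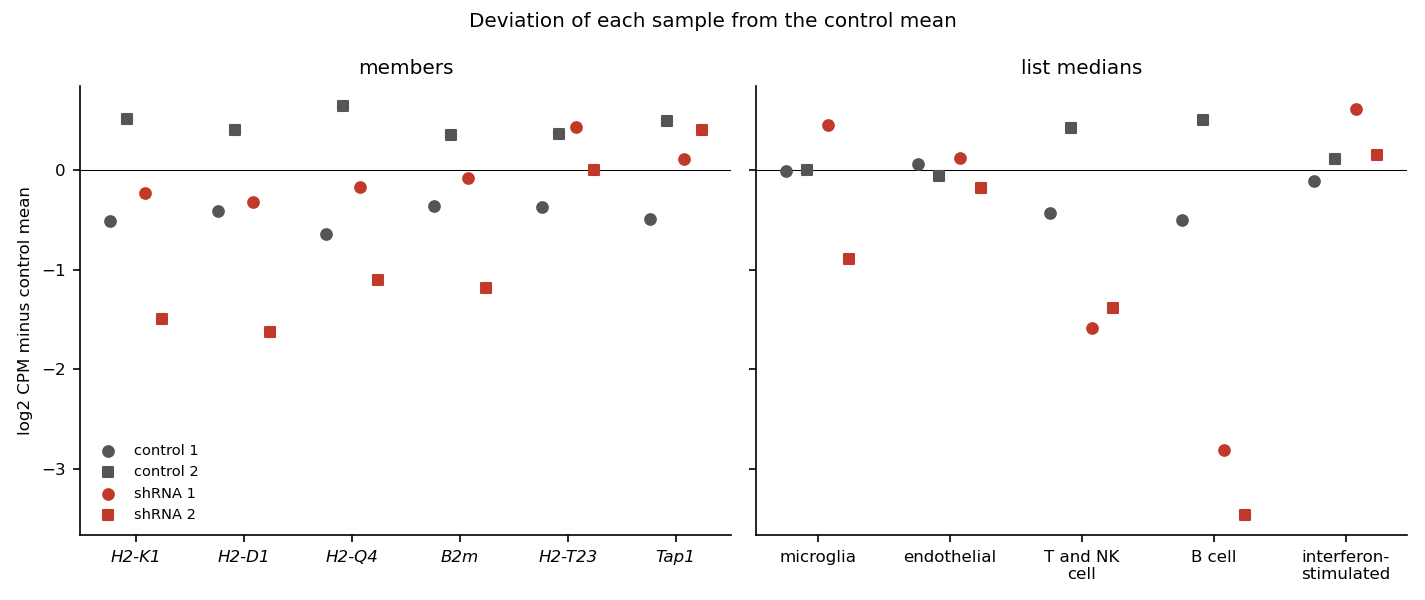
Deviation of each sample (grey, control; red, Ash1L shRNA; circles, replicate 1; squares, replicate 2) from the control mean on the log2 CPM scale, for 6 members and for the median of 5 gene lists. H2-K1 is at -0.23 and -1.49 and the microglial median at 0.45 and -0.89 in the Ash1L shRNA samples.

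By pattern over the 4 samples, the tested genes nearest to *H2-T10* were *H2-Q10*, *Ly6c2*, *Cd79a*, *Cd3g* and *Gm6034*, at Euclidean distances of 0.627 to 0.817 between deviations on the log2 CPM scale. *Ly6c2* marks monocytes, *Cd79a* B cells and *Cd3g* T cells. Those nearest to *H2-K1* were *Rasal3*, *Slc36a2*, *9930111J21Rik2*, *H2-D1* and *Wdfy4*, at distances of 0.127 to 0.191. These are likenesses over 4 samples and carry no test.

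Other genes of the pathway were counted from lists, of which 96 genes were tested. Of these, 9 were DOWN and 15 were UP, where 8.28% of all genes were DOWN and 8.61% were UP. The median log2 fold change was 0.08, against -0.003 over all genes tested. None had an adjusted p under 0.05 by edgeR's quasi-likelihood test (Benjamini-Hochberg corrected), where the called genes had values of 0.234 to 0.288. The count of DOWN genes was 19 without control replicate 1, 1 without control replicate 2 and 16 without *Ash1L* shRNA replicate 1. The count of UP genes was 6 without control replicate 1, 9 without control replicate 2 and 26 without *Ash1L* shRNA replicate 2.

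**Figure D4:**
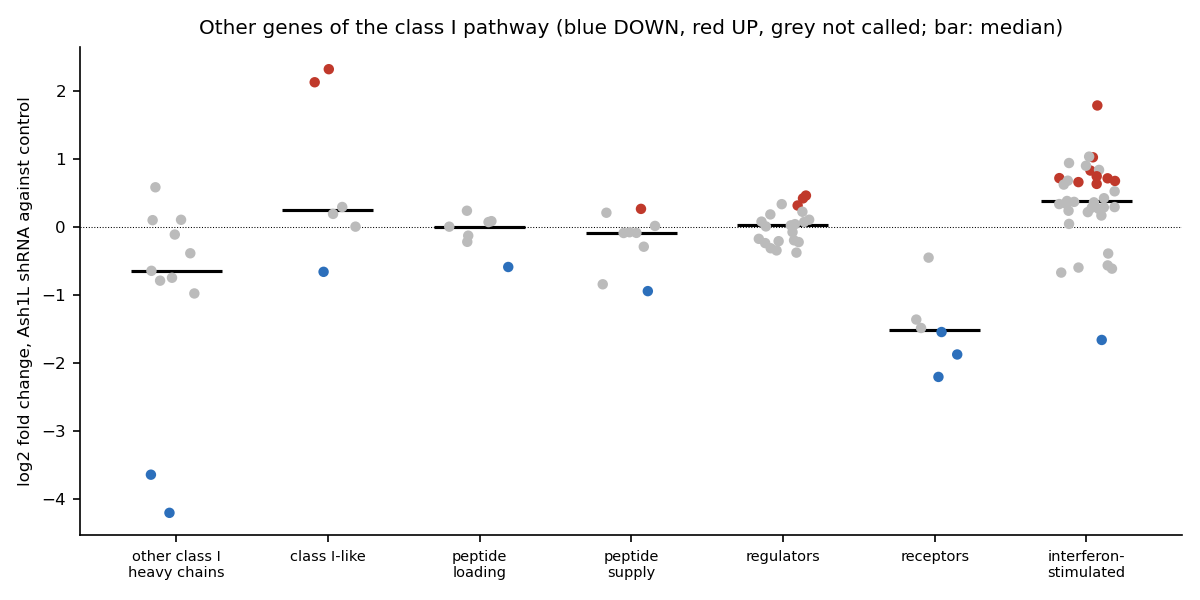
Log2 fold change (Ash1L shRNA against control) of each tested gene in 7 lists of the class I pathway other than the members, with bars at the list medians. Medians run from -1.52 for receptors to 0.38 for interferon-stimulated genes, and the H2-T3 value of -4.21 rests on 0 and 1 counts in the Ash1L shRNA samples.

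Among the other heavy chain genes, 11 of 28 were tested, and 8 of the 28 had no counts in any sample. *H2-T3*, which encodes the thymus leukemia antigen, was DOWN with 6 and 18 counts in controls and 0 and 1 counts in the *Ash1L* shRNA samples. *Gm6034*, the gene opposite *Gm11127*, was DOWN with 14 and 41 counts against 3 and 1 counts. No gene of this list was UP, and the median log2 fold change was -0.65. It was -0.22, with 1 gene DOWN and 1 UP, without control replicate 2, and -1.17, with 4 DOWN, without *Ash1L* shRNA replicate 1. Without control replicate 1, 4 genes were DOWN. With at least 10 counts in every sample, 5 genes were tested, 0 were called and the median was -0.10. The class I-like genes went both ways. *Cd1d1*, which presents lipids, was UP with 13 and 37 counts in controls and 108 and 127 counts in the *Ash1L* shRNA samples (log2 fold change 2.32, SE 0.38). *Procr*, the endothelial protein C receptor, was UP at 2.13 (SE 0.51), and *Fcgrt*, the heavy chain of the neonatal Fc receptor, was DOWN at -0.66 (SE 0.20). No class I-like gene was DOWN without control replicate 1 or without control replicate 2, and 1 in place of 2 was UP without control replicate 2.

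Of 7 loading genes, *Tap2* alone was DOWN, at -0.59 (SE 0.22) on the log2 scale, and it was not called without control replicate 2 or without *Ash1L* shRNA replicate 2. *Erap1*, which trims peptides in the endoplasmic reticulum, had the highest value of the list at 0.24. Of 9 genes that supply peptide, the immunoproteasome subunit gene *Psmb8* was DOWN at -0.95 (SE 0.35) and the peptidase gene *Tpp2* was UP at 0.27 (SE 0.11). *Psmb9*, another immunoproteasome subunit gene, had a value of -0.84 (SE 0.46) and was not called. No gene of this list was called without control replicate 2, without *Ash1L* shRNA replicate 2 or without the filter on low counts, and none was UP with DESeq2 or without control replicate 1.

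Regulators of class I transcription had log2 fold changes from -0.38 to 0.46. Of 21 tested, *Nfyc* (0.46, a subunit of the CCAAT-binding factor), *Irf9* (0.42, part of the type I interferon response factor) and *Ifngr2* (0.32, a chain of the interferon-γ receptor) were UP on the log2 scale, and 0 were DOWN. *Nlrc5*, the class I transactivator, had a log2 fold change of -0.18 (SE 0.33). The lowest value was that of *Irf1*. Without control replicate 2, 0 regulators were UP, without control replicate 1, 1 was UP and 2 were DOWN, and without *Ash1L* shRNA replicate 1, 3 were UP and 3 DOWN.

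Interferon-stimulated genes outside the class I set included more UP than DOWN genes. Of 36 tested, 9 were UP and 1 was DOWN, against 8.61% and 8.28% of all genes, and the median log2 fold change was 0.38. *Rsad2*, an antiviral enzyme gene, was at 9.42 and 7.30 CPM in controls and 34.8 and 22.3 CPM in the *Ash1L* shRNA samples (log2 fold change 1.79, SE 0.26). The RNA sensor gene *Ifih1* was UP at 1.02 (SE 0.14). *Ddx58*, another RNA sensor gene, *Usp18*, a brake on interferon signalling, and *Ifitm3*, which hinders virus entry, were UP at 0.83, 0.75 and 0.72 on the log2 scale. *Cxcl9*, a chemokine gene induced by interferon-γ, was DOWN at -1.66 (SE 0.53). The count of UP genes was 3 without control replicate 1, 6 without *Ash1L* shRNA replicate 1 and 22 without *Ash1L* shRNA replicate 2, and that of DOWN genes was 6 without control replicate 1, 2 without *Ash1L* shRNA replicate 1 and 0 without control replicate 2 or *Ash1L* shRNA replicate 2.

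Receptors that read class I were low in both groups. Of 6 tested, *Cd8b1* (a chain of the CD8 coreceptor), *Cd247* (the signalling chain of the T cell receptor) and *Klrc1* (NKG2A) were DOWN. Over all genes tested, 8.28% were DOWN. With the replicate block, 2 of the 6 receptor genes were DOWN, and with at least 10 counts in every sample 1 of 3 tested. *Cd8b1* had 11 and 44 counts in controls and 9 and 2 counts in the *Ash1L* shRNA samples. *Cd247* had 21 and 100 counts against 10 and 18 counts. The median log2 fold change of the list was -1.52, and 0 of 5 tested genes were DOWN without control replicate 2.

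The histocompatibility region was taken as the genes on chromosome 17 from *Daxx* to *Mog*. Of its 125 tested genes, 16% were DOWN and 6.4% were UP. The 16% includes DOWN members, which were chosen from this contrast, so it is not compared with all genes. Without the members, 117 genes were tested, of which 14.5% were DOWN and 6.84% were UP. Over all genes tested, 8.28% were DOWN and 8.61% were UP. Without the members and the class II genes, 108 genes were tested, of which 11 were DOWN and 8 (7.41%) UP, with a median log2 fold change of -0.115. Class II genes, which present peptide to CD4 T cells, were DOWN in 6 of 9 tested, with a median of -2.21. *H2-Eb2*, a class II β chain gene, had 18 and 42 counts in controls and 4 and 2 counts in the *Ash1L* shRNA samples. Between *H2-T23* and *H2-T3*, 4 of 7 tested genes were DOWN, which were *H2-T10*, *Gm11127*, *Gm6034* and *H2-T3*. Of these, *H2-T10* and *Gm11127* are members chosen from this contrast. Without the members, 2 of 4 tested genes were DOWN. One of them, *Gm6034*, shared 32.9% of its 50-base words with *Gm11127*, so nothing is read from this count.

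UP genes stood between the class I genes in the same region. *Cdsn*, which encodes an adhesion protein of skin, had 33 and 33 counts in controls and 215 and 195 counts in the *Ash1L* shRNA samples (log2 fold change 2.49, SE 0.44). *Vwa7* (1.88), the heat shock gene *Hspa1a* (1.87) and the immediate early gene *Ier3* (1.36) were UP on the log2 scale. The matrix gene *Tnxb* (0.86) and the endothelial receptor gene *Notch4* (0.72) were UP too. In the region the counts of DOWN and UP genes moved when a sample was left out, as they did over all genes tested.

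**Figure D5:**
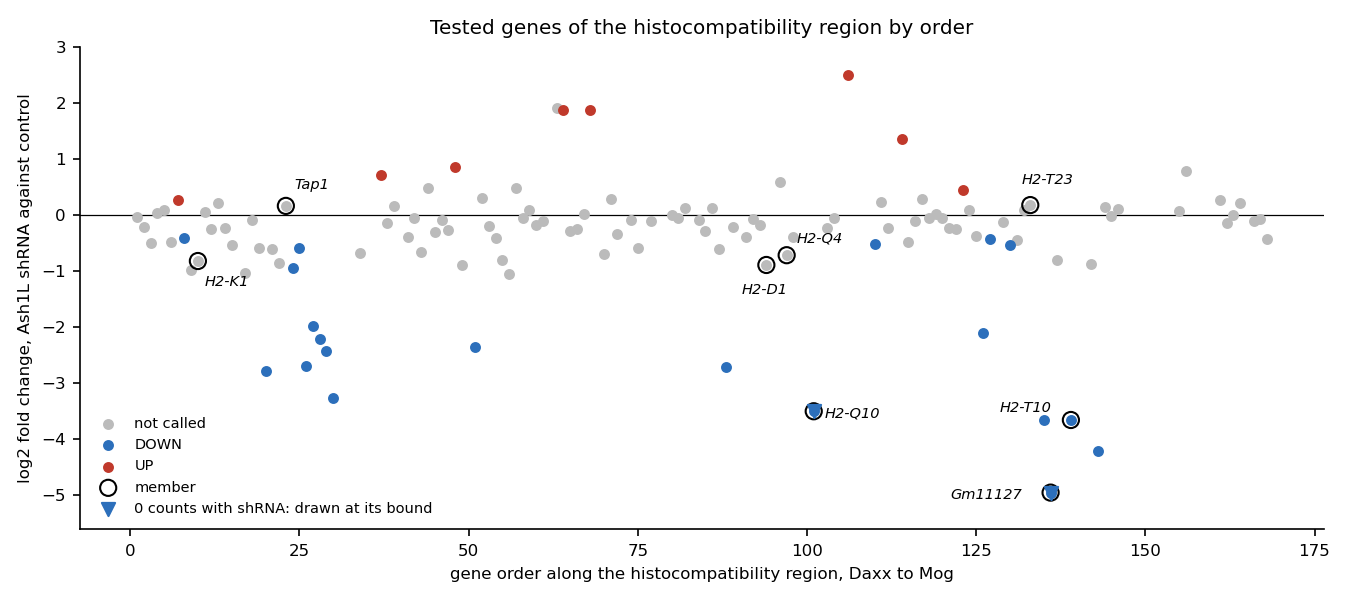
Log2 fold change (Ash1L shRNA against control) of the 125 tested genes from Daxx to Mog by their order on chromosome 17, with DOWN genes in blue, UP genes in red, other genes in grey and members ringed. H2-Q10 and Gm11127, with 0 counts in both Ash1L shRNA samples, are drawn as triangles at their bounds of at least 11.3-fold and 30.9-fold lower, and H2-K1, H2-D1 and H2-Q4 lie between -0.89 and -0.71.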

How the data were processed

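RNA-seq of PFC was analysed for 2 control and 2 *Ash1L* shRNA samples, grouped by their labels. The authors made stranded total RNA libraries after removal of ribosomal RNA, aligned reads to mm10 with STAR and counted them with featureCounts, per the file headers and the paper. The labels also describe TopHat2. The deposited files hold raw counts, 1 value per symbol. The annotation, strand and multiple-mapping settings of the counting are not given in the sources used here.

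Counts were filtered with filterByExpr, scaled by TMM and tested with edgeR 4.0.16 (quasi-likelihood F test with robust estimation, R 4.3.3), with Benjamini-Hochberg adjustment over 16232 genes. The test was checked on simulated counts. Alternatives were DESeq2 1.42.0, the likelihood ratio test, other scalings, filters and dispersion settings, a 1.5-fold limit, the replicate block and each sample left out. The study used DESeq2. Positions, exonic lengths and shared words came from GENCODE M21 (GRCm38) and were matched by symbol. Words were taken from transcripts in place of merged exons, since no genome was given. Protein identity was not analysed here. Promoters came from RefSeq GRCm38.p6.

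The members and gene lists were chosen with earlier results of these data known. Named genes were all members, at most 6 called genes of each other list by absolute log2 fold change or the ends of its range, at most 6 called genes in each direction in the region, and the 5 genes nearest in pattern to *H2-T10* and *H2-K1*. Some genes that the rule selects are given by count only.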

Additional observations from a re-analysis of the deposited data

How the results depend on the processing

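The count of members with an adjusted p under 0.05 was 1 by edgeR's quasi-likelihood test, where 1 of all genes tested passed. It was 3 with DESeq2, without and with shrunken fold changes, where 421 and 407 of all genes passed. It was 3 with edgeR's likelihood ratio test, where 479 of all genes passed, and 3 without a filter on low counts, where 34 passed. The rise is thus not particular to the members. With at least 10 counts in every sample, 1 member, 5 other pathway genes and 13 genes of the region were DOWN, since fewer genes were tested. When samples were left out in turn, with the lone sample assumed to vary like the other group, 3 to 5 members were DOWN, 0 to 1 were UP and 0 to 3 had an adjusted p under 0.05 by edgeR's quasi-likelihood test. Likewise 1 to 19 other pathway genes were DOWN and 6 to 26 UP, and 13 to 33 genes of the region were DOWN and 4 to 10 UP. The log2 fold changes that turned ran from -1.29 to 0.08 for *H2-Q4*, from -0.12 to 0.60 for *H2-T23* and from -0.22 to 0.75 for *Tap1*. Counts of DOWN and UP genes over all genes tested moved as well, so moving counts are not particular to these lists. The cause of the other moves was not tested.

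The samples share replicate numbers, but deviations of same-numbered samples from the group means had a correlation of -0.11, so the numbers were not taken as a pairing. With the replicate block, 0 members had an adjusted p under 0.05 by edgeR's quasi-likelihood test and 5 genes of the region were UP, and no peptide supply gene was called. The crossed pairing, chosen after seeing the data, gave 7 DOWN members and 34 DOWN genes of the region.

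The summed heavy chain level moved by less than the spread between samples under every scaling, from -0.725 to -0.691 on the log2 scale. Scaling by library size alone moved the median of all genes to 0.039. Depth limits *H2-T22*, *H2-Q10* and *Gm11127*.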
